A study of Homo sapiens with 8 samples.

Results

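The genes described here are the amino acid and monocarboxylate transporters of 8 solute carrier families, SLC1, SLC3, SLC6, SLC7, SLC16, SLC36, SLC38 and SLC43. The rule that picks them uses the gene symbol and no measured value, and 73 of the 58302 genes in the table carry such a symbol. These families and the other gene lists below were, however, chosen with earlier results of these data known. RNA was sequenced from HCT116 p53+/+ cells, an established human colon cancer line, after 24 hours with 1 µM MANIO, a compound known here by its code name, or with its solvent DMSO. Each group has 4 libraries, which the labels call biological replicates, and both groups are the same line in the same medium with L-glutamine. No p53-deficient cells, second dose or second time were analysed here, so each difference is between MANIO and DMSO in 1 genotype at 1 time.

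Solute carriers are membrane proteins that move small molecules across the plasma membrane or the membranes of organelles. Members of these families bring in glutamine, leucine, arginine, cystine and other amino acids. They do so with sodium or protons, by exchange for an amino acid inside the cell, or by diffusion through the carrier. Of the 14 SLC16 members, 4 carry lactate and pyruvate with protons. Growing tumour cells use these families to supply protein synthesis, glutathione and the amino acid signal to the kinase mTORC1, and to release lactate from glycolysis.

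Of the 73 genes, 40 had enough counts for testing and 33 did not. Differences were tested with edgeR's quasi-likelihood test over all 15712 genes that passed the filter on low counts, and a gene was called at a Benjamini-Hochberg adjusted p under 0.05. By that rule 13 transporters were higher in MANIO, 14 were lower and 13 were not called. The background in this comparison is high, since 54.6% of all tested genes were called, 27.8% higher and 26.8% lower in MANIO. The called share of the transporters was 67.5%, with 32.5% higher and 35% lower. The MANIO and DMSO libraries did not overlap for 21 of the 40 transporters, a share of 52.5%, against 48.3% of all tested genes.

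The changes were small. The log2 fold changes of the 40 transporters, MANIO over DMSO, ran between -0.70 and 0.95, and none reached 2-fold, a size that 1083 of the 15712 tested genes reached. Their median was 0.03 and the median of all tested genes was 0.00. The 13 genes called higher rose by 1.17-fold to 1.93-fold with a median of 1.22-fold. The 14 genes called lower had a median of 1.32-fold lower and at most 1.63-fold lower. When calls were limited to changes beyond 1.2-fold (edgeR's glmTreat), 2 of the 40 transporters were called higher and 6 lower. At this limit 4132 of the 15712 tested genes were called, so here the transporters had the smaller called share. In bulk RNA, fewer cells that make a transcript and less of it per cell cannot be told apart.

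By family, all 4 tested SLC1 genes were lower in MANIO. Of 6 tested SLC7 genes, 1 was higher and 3 were lower. The 8 tested SLC38 genes had 3 in each direction, and so had the 9 tested SLC16 genes. None of the 3 tested SLC43 genes was lower and 2 were higher. Of 7 tested SLC6 genes, 3 were higher and 1 was lower, and of 2 tested SLC36 genes, 1 was higher. The single tested SLC3 gene, SLC3A2, was not called. Over all tested genes 27.8% were higher and 26.8% lower. The families hold 1 to 9 tested genes, and no family was tested as a set.

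**Figure D1:**
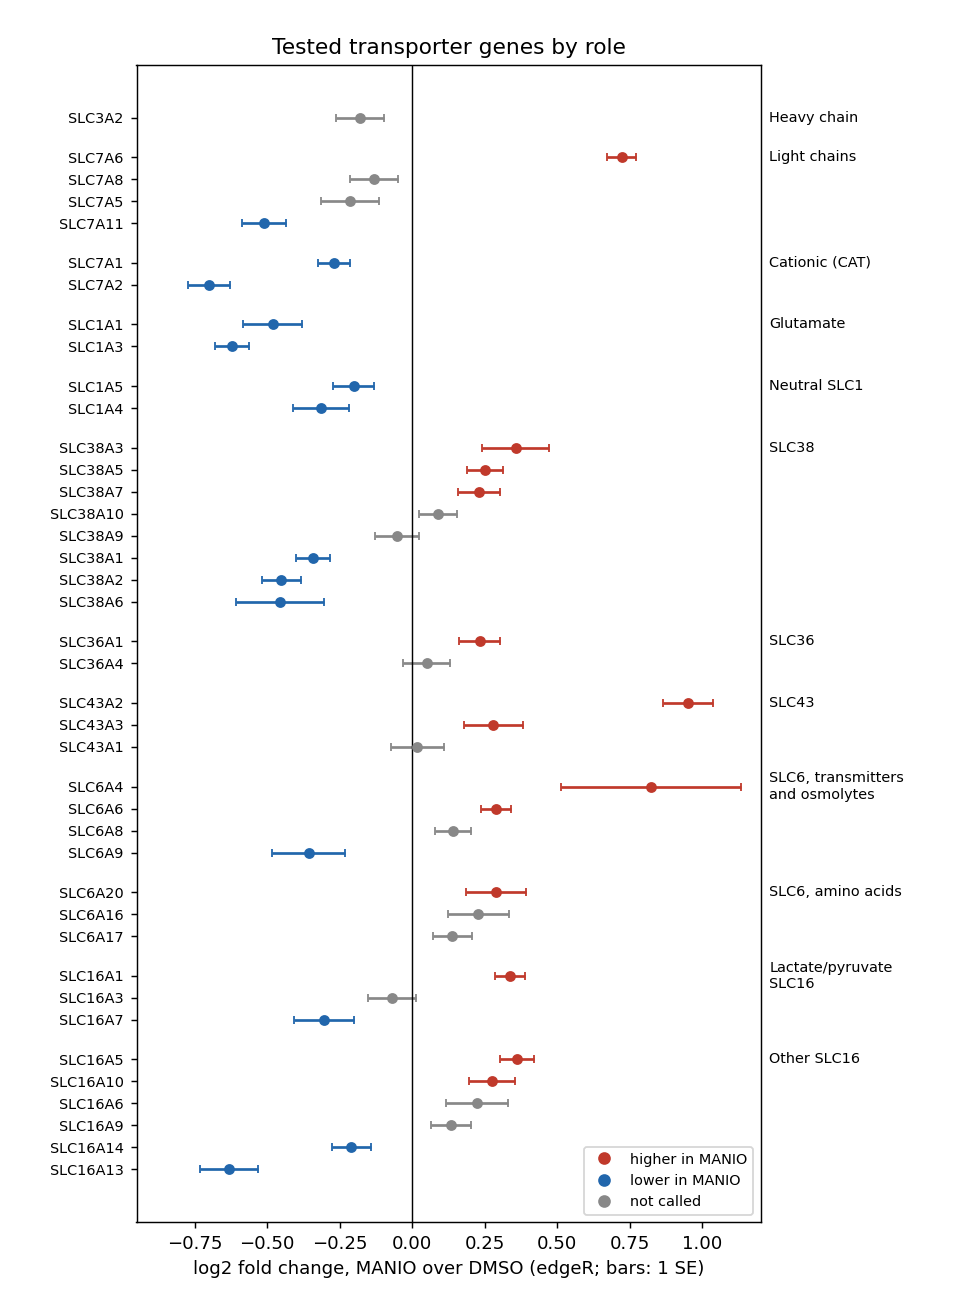
Log2 fold change, MANIO over DMSO, of the 40 tested transporter genes on the x axis, with 1 standard error, grouped down the page by role. Red points are called higher and blue points lower in MANIO at an adjusted p under 0.05, and grey points are not called. SLC43A2 at 0.95 and SLC7A6 at 0.72 lie farthest right among the precisely measured genes, and SLC7A2 at -0.70 lies farthest left.

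The 8 libraries held 27945196 to 32509020 counts. Mitochondrial genes took 7.08% ± 0.400 of counts in MANIO and 5.65% ± 1.23 in DMSO (SD, n = 4 each, exact two-sided permutation p = 0.114, adjusted over 2 library measures 0.171, smallest possible p 0.0286). Among DMSO libraries, replicate 1 stood apart with 7.48%, against 4.82% to 5.21% in the other 3. The markers of colon epithelium summed to 4135 to 4636 CPM in MANIO and 3350 to 3622 CPM in DMSO, although VIL1 and CDX1 had at most 11 and 2 counts in a library. Leukocyte markers summed to 0.158 to 0.380 CPM in MANIO and 0.0955 to 0.186 CPM in DMSO, and endothelial markers to 0.396 to 0.570 CPM in MANIO and 1.05 to 1.31 CPM in DMSO, with CLDN5 at 0. The fibroblast list summed to 39.1 to 46.7 CPM in MANIO and 21.1 to 26.1 CPM in DMSO. COL1A1 made nearly all of it, with means of 42.2 CPM in MANIO and 22.9 CPM in DMSO, while PDGFRA was at 0 in all 8 libraries. The part of these differences between libraries in the transporter results was not tested.

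CPM stands for counts per 1000000 counts, on library sizes scaled with edgeR's TMM factors. To compare genes with each other, CPM was divided by the merged exon length in kb. On that per-length scale the most abundant transporter in both groups was SLC38A2, with 102.8 ± 8.79 in MANIO and 140.5 ± 8.01 in DMSO (SD, n = 4 each). SLC7A5 followed with 95.6 ± 11.1 in MANIO and 110.9 ± 15.3 in DMSO, within the spread of SLC38A2 in MANIO. SLC1A5 came next, with 70.3 ± 4.79 in MANIO and 80.8 ± 7.78 in DMSO, and then SLC3A2, with 47.6 ± 4.71 in MANIO and 53.9 ± 6.04 in DMSO. SLC16A1 stood 5th in MANIO and 7th in DMSO, and SLC38A1 stood 7th in MANIO and 5th in DMSO. Summed over all 73 genes the per-length level was 589 ± 20.02 in MANIO and 654 ± 26.9 in DMSO, without overlap between the groups. As a share of all counts the genes took 0.355% ± 0.00839 in MANIO and 0.387% ± 0.0177 in DMSO, and here DMSO replicate 1, at 0.361%, lay within the MANIO range.

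**Figure D2:**
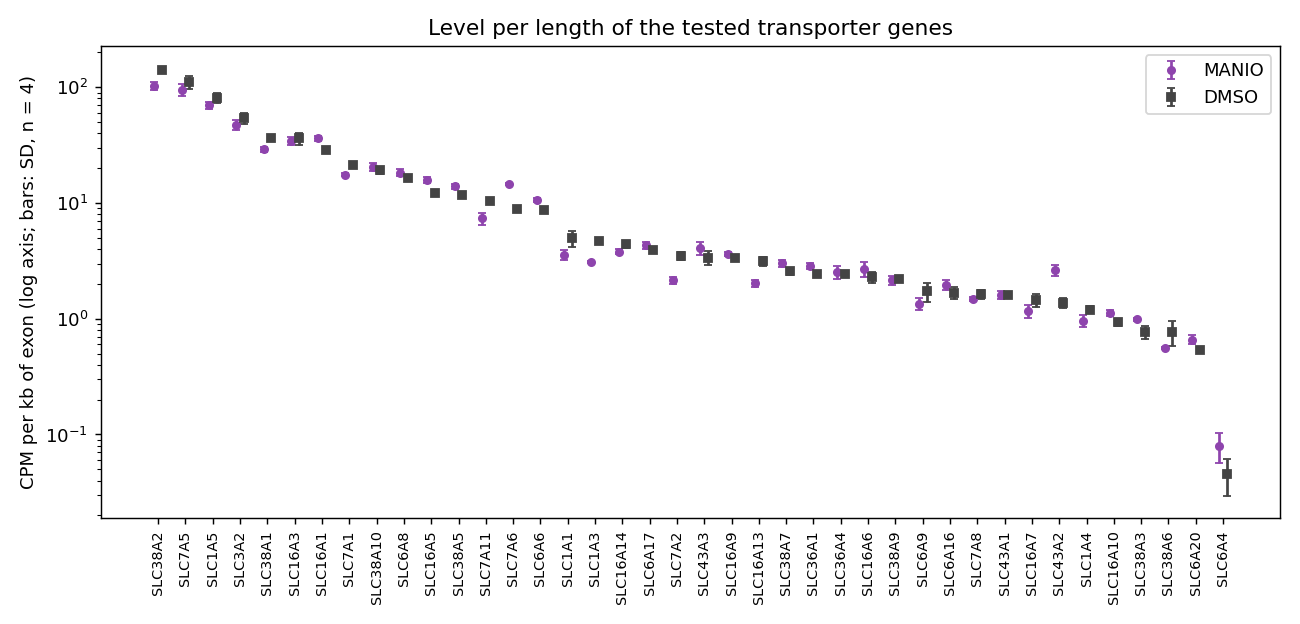
Level per length (CPM per kb of exon, log axis) of the 40 tested transporters, ordered by their DMSO level, as mean and SD over 4 libraries per group, with MANIO left of DMSO. SLC38A2 leads both groups at 102.8 in MANIO and 140.5 in DMSO, and 14 of the 15 genes at the left end have means over 8 in both groups, the exception being SLC7A11 at 7.36 in MANIO.

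The heteromeric transporters are disulfide-linked pairs of a heavy chain, which carries the pair to the membrane, and a light chain, which moves the substrate. SLC7A6, the light chain y+LAT2 that exchanges arginine for neutral amino acids, rose in MANIO. SLC7A11, the light chain xCT that takes up cystine in exchange for glutamate and so feeds glutathione synthesis, fell. The heavy chain SLC3A2 (CD98) and the leucine transporter light chain SLC7A5 (LAT1), the most abundant pair, were not called. Of the 8 light chain genes in the table, 4 were tested, with 1 higher, 1 lower and 2 not called.

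SLC7A6 (ENSG00000103064, chromosome 16, 68264516 to 68301823, plus strand, GRCh38) had 112.3, 109.4, 113.0 and 109.2 CPM in the MANIO libraries, replicates 1 to 4, against 66.0, 71.3, 66.6 and 65.2 CPM in the DMSO libraries. The 4 MANIO libraries lay close together and far above every DMSO library. The log2 fold change was 0.72 (SE 0.0505, edgeR adjusted p = 2.2e-08), a 1.65-fold rise. A stretch holding 55.6% of its exonic bases also lies in exons of SLC7A6OS on the opposite strand, and the library kit does not mark the strand. SLC7A6OS itself was not called, with 29.9 ± 1.09 CPM in MANIO and 32.3 ± 1.199 CPM in DMSO (log2 fold change -0.11, edgeR adjusted p = 0.113).

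SLC7A11 (ENSG00000151012, chromosome 4, 138164097 to 138242349, minus strand) had 61.3, 79.8, 66.4 and 76.4 CPM in MANIO, against 97.4, 98.2, 108.6 and 100.5 CPM in DMSO. Every MANIO library lay below every DMSO library, and the MANIO libraries were the more spread. The log2 fold change was -0.51 (SE 0.0758, edgeR adjusted p = 4.5e-05), and it lay between -0.57 and -0.45 in every alternative tried.

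SLC7A5 had 477.3, 505.0, 450.1 and 382.2 CPM in MANIO, against 451.0, 618.3, 544.4 and 490.9 CPM in DMSO. SLC3A2 had 257.6, 270.3, 243.9 and 213.5 CPM in MANIO, against 258.2, 318.5, 289.8 and 250.2 CPM in DMSO. For both subunits the groups overlapped, MANIO replicate 4 was the lowest library of all, and DMSO replicates 1 and 4 were the lowest of the DMSO group. The log2 fold changes were -0.21 for SLC7A5 (SE 0.1001, edgeR adjusted p = 0.088) and -0.18 for SLC3A2 (SE 0.0833, edgeR adjusted p = 0.0809). These calls depended on single libraries: without DMSO replicate 1 SLC7A5 was called lower (-0.28, edgeR adjusted p = 0.0266), and SLC3A2 was called lower without MANIO replicate 2 (-0.23, edgeR adjusted p = 0.0457) or DMSO replicate 4 (-0.23, edgeR adjusted p = 0.0339). Both were also called lower with no filter on low counts, and with the replicate number as a block. SLC7A8 (LAT2), a light chain with a broad choice of neutral amino acids, differed by -0.13 on the log2 scale and was not called (edgeR adjusted p = 0.195).

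Among the 6 light chains that pair with SLC3A2, SLC7A6 made 12.0%, 11.1%, 12.6% and 13.8% of the summed per-length level in MANIO, against 7.54%, 6.21%, 6.44% and 6.91% in DMSO. The share of SLC7A5 was 80.1% ± 2.08 in MANIO and 83.9% ± 1.54 in DMSO, and that of SLC7A11 was 6.23% ± 1.03 in MANIO and 8.03% ± 0.898 in DMSO (SD, n = 4 each). The groups did not overlap for SLC7A6 or SLC7A5, and they overlapped for SLC7A11. The summed light chains stood at 2.51 ± 0.0226 times SLC3A2 in MANIO and 2.45 ± 0.107 times in DMSO, so this ratio differed by less than the spread of the DMSO libraries. These shares are descriptions of RNA and were not tested.

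**Figure D3:**
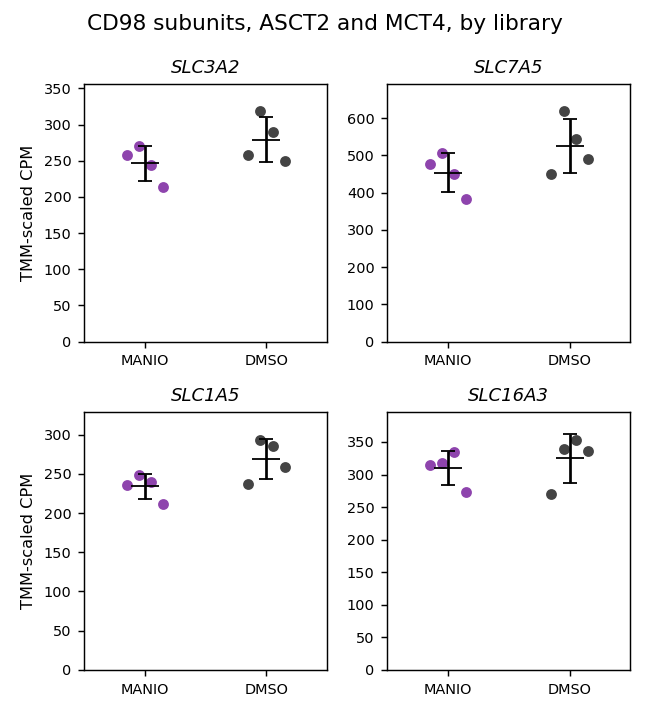
TMM-scaled CPM by library of SLC3A2, SLC7A5, SLC1A5 and SLC16A3, 4 MANIO libraries left of 4 DMSO libraries in each panel, with mean and SD in black and each y axis starting at 0. In every panel the groups overlap, and MANIO replicate 4, the rightmost MANIO point, is the lowest of its group, at 382.2 CPM for SLC7A5 and 213.5 CPM for SLC3A2.

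Both tested cationic amino acid transporters, which carry arginine and lysine without a heavy chain, fell. SLC7A2 (CAT2, chromosome 8) had 18.5, 16.6, 15.4 and 17.4 CPM in MANIO, against 30.5, 26.8, 26.2 and 27.1 CPM in DMSO. The groups were far apart, and its log2 fold change of -0.70 (SE 0.0732, edgeR adjusted p = 1.4e-06) was the lowest of the 40. SLC7A1 (CAT1, chromosome 13) had 136.5, 138.6, 137.1 and 128.5 CPM in MANIO, against 155.6, 175.9, 165.3 and 154.7 CPM in DMSO, a smaller difference also without overlap (-0.27, SE 0.0548, edgeR adjusted p = 7.2e-04). Per length SLC7A1 was the more abundant of the pair, with 17.6 against 2.15 for SLC7A2 in MANIO, and 21.2 against 3.49 in DMSO. SLC7A3 and SLC7A4 had no count in any library, and neither had SLC7A13.

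All 4 tested SLC1 genes, which couple uptake to sodium, fell in MANIO. SLC1A3 (EAAT1), which takes up glutamate and aspartate, had 19.1, 19.4, 18.9 and 19.9 CPM in MANIO, against 30.7, 30.8, 29.1 and 28.2 CPM in DMSO. Replicates were tight in both groups, and the log2 fold change was -0.62 (SE 0.0589, edgeR adjusted p = 5.1e-07). SLC1A1 (EAAT3), the other glutamate transporter tested, had 15.3, 13.0, 13.2 and 15.4 CPM in MANIO, against 23.6, 17.2, 17.6 and 21.0 CPM in DMSO (-0.48, SE 0.101, edgeR adjusted p = 9.5e-04). Its DMSO libraries were more spread but stayed above all MANIO libraries.

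The exchangers of alanine, serine, cysteine and, for SLC1A5, glutamine moved less. SLC1A5 (ASCT2) had 236.0, 249.2, 239.5 and 211.7 CPM in MANIO, against 237.3, 293.9, 286.2 and 259.4 CPM in DMSO. DMSO replicate 1 lay among the MANIO libraries, so the groups overlapped (-0.20, SE 0.0704, edgeR adjusted p = 0.0242). The call for SLC1A5 was lost without MANIO replicate 4, DMSO replicate 2 or DMSO replicate 3 (edgeR adjusted p = 0.0644, 0.08 and 0.0839). The antisense gene AC008622.2, which shares 23.8% of the exonic bases of SLC1A5, had 0.152 CPM in MANIO and 0.288 CPM in DMSO on average. SLC1A4 (ASCT1) had 6.97, 7.26, 6.93 and 5.59 CPM in MANIO, against 8.37, 9.15, 7.67 and 8.14 CPM in DMSO, without overlap (-0.31, SE 0.0973, edgeR adjusted p = 0.0127).

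**Figure D4:**
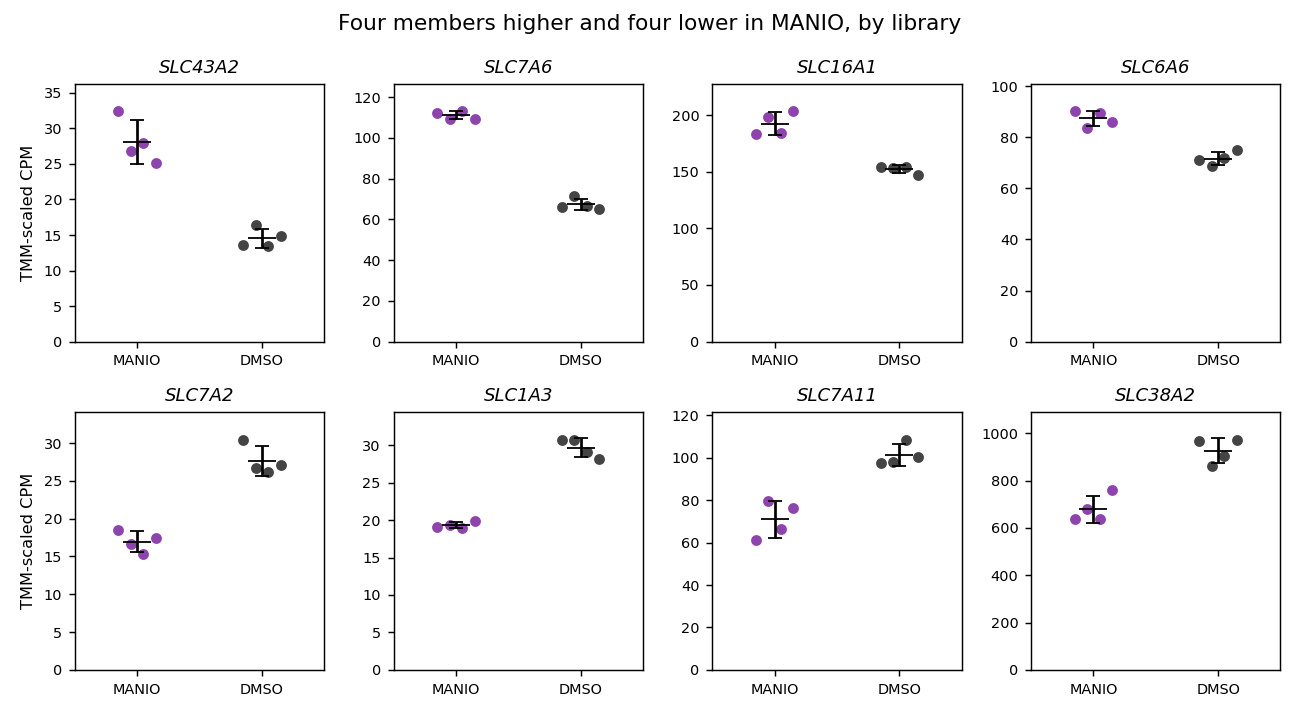
TMM-scaled CPM by library of 4 transporters higher and 4 lower in MANIO, with the 4 MANIO libraries left of the 4 DMSO libraries in each panel, mean and SD in black, and each y axis starting at 0. The groups do not overlap in any of the 8 panels: SLC43A2 averages 28.1 CPM in MANIO and 14.6 CPM in DMSO, and SLC38A2 averages 679 CPM in MANIO and 927 CPM in DMSO.

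The SLC38 family takes up glutamine, alanine and other small neutral amino acids with sodium. SLC38A2 (SNAT2), known for its induction when cells lack amino acids, had 638.0, 679.9, 636.6 and 760.4 CPM in MANIO, against 967.3, 863.3, 905.2 and 974.1 CPM in DMSO. SLC38A1 (SNAT1) had 286.3, 295.5, 270.7 and 309.2 CPM in MANIO, against 395.1, 372.6, 359.4 and 346.1 CPM in DMSO. Neither gene had overlapping groups, and the log2 fold changes were -0.45 for SLC38A2 (SE 0.0661, edgeR adjusted p = 4.1e-05) and -0.34 for SLC38A1 (SE 0.0579, edgeR adjusted p = 1.4e-04). They are neighbours on chromosome 12, both on the minus strand with 88.2 kb between them. Of the summed counts of all 73 genes, SLC38A2 took 19.3% ± 1.93 in MANIO and 23.7% ± 2.04 in DMSO.

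Of the other SLC38 genes, SLC38A3 (SNAT3) and SLC38A5 (SNAT5), which also release glutamine, were higher in MANIO. SLC38A5 had 58.9, 57.9, 54.3 and 52.1 CPM in MANIO, against 43.6, 50.2, 48.3 and 45.3 CPM in DMSO, without overlap (0.25, SE 0.0624, edgeR adjusted p = 0.00319). SLC38A3 had 3.93, 4.02, 3.86 and 3.84 CPM in MANIO, against 3.13, 2.48, 3.41 and 3.20 CPM in DMSO (0.36, SE 0.115, edgeR adjusted p = 0.016), and lost its call without DMSO replicate 2 (0.27, edgeR adjusted p = 0.0606). The lysosomal SLC38A7 was called higher (0.23, edgeR adjusted p = 0.0133) with overlapping groups, and lost its call without DMSO replicate 3 (edgeR adjusted p = 0.0543).

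SLC38A6 was lower, with 2.82, 2.99, 2.88 and 2.83 CPM in MANIO, against 4.09, 3.01, 3.47 and 5.26 CPM in DMSO (-0.45, SE 0.151, edgeR adjusted p = 0.0189). Its DMSO libraries were spread widely, and DMSO replicate 2 lay just above the MANIO range. Without DMSO replicate 4 its log2 fold change was -0.29 and it was not called (edgeR adjusted p = 0.0768). The lysosomal arginine sensor SLC38A9 was not called, with 18.9 ± 1.80 CPM in MANIO and 19.6 ± 1.05 CPM in DMSO (SD, n = 4 each, -0.05, edgeR adjusted p = 0.577), and neither was SLC38A10 (0.09, edgeR adjusted p = 0.263).

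Proton-coupled SLC36A1 (PAT1), which carries small amino acids out of lysosomes and into cells, had 20.1, 21.4, 18.8 and 19.7 CPM in MANIO, against 16.2, 18.7, 16.5 and 16.8 CPM in DMSO. The groups did not overlap, by a narrow margin between MANIO replicate 3 and DMSO replicate 2 (0.23, SE 0.0695, edgeR adjusted p = 0.0106). SLC36A4 (PAT4) was not called (0.05, edgeR adjusted p = 0.629).

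SLC43A2 (LAT4), a facilitator that lets leucine, phenylalanine and other large neutral amino acids cross by diffusion, showed the largest rise of the 40. SLC43A2 (ENSG00000167703, chromosome 17, 1569267 to 1628886, minus strand, GRCh38) had 32.4, 26.8, 28 and 25.2 CPM in MANIO, against 13.6, 16.4, 13.5 and 14.8 CPM in DMSO. Every MANIO library was well above every DMSO library, and the log2 fold change was 0.95 (SE 0.0864, edgeR adjusted p = 3.4e-07). No exonic base of SLC43A2 lies in an exon of another gene. The related facilitator SLC43A1 (LAT3) was not called, with 5.67, 6.31, 5.60 and 5.11 CPM in MANIO, against 5.62, 5.52, 5.57 and 5.76 CPM in DMSO (0.02, SE 0.0914, edgeR adjusted p = 0.891). Per length SLC43A2 stood at 1.66 ± 0.200 times SLC43A1 in MANIO and 0.864 ± 0.0852 times in DMSO (SD, n = 4 each), with no overlap between the groups.

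SLC43A3, a nucleobase transporter in humans, lies 56.95 kb from SLC43A1 on chromosome 11. SLC43A3 was called higher with overlapping groups, with 18.5 ± 2.30 CPM in MANIO and 15.2 ± 1.98 CPM in DMSO (0.28, edgeR adjusted p = 0.0286). The gene AP000781.2 on the same strand, which shares 29.9% of the exonic bases of SLC43A3, had 0.0630 CPM in MANIO and 0.0358 CPM in DMSO on average. The call for SLC43A3 was lost without MANIO replicate 1, MANIO replicate 2, DMSO replicate 3 or DMSO replicate 4 (edgeR adjusted p = 0.0718, 0.11, 0.0929 and 0.0899).

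In the SLC6 family, which uses sodium and chloride, the taurine transporter SLC6A6 rose. SLC6A6 had 90.1, 83.6, 89.6 and 86.1 CPM in MANIO, against 70.9, 68.6, 71.9 and 74.9 CPM in DMSO, with a clear gap between the groups (0.29, SE 0.0519, edgeR adjusted p = 2.6e-04). The creatine transporter SLC6A8 was not called, with 104.1, 105.3, 103.4 and 89.7 CPM in MANIO, against 83.9, 92.8, 93.3 and 94.9 CPM in DMSO (0.14, SE 0.0624, edgeR adjusted p = 0.0664). Its MANIO replicate 4 lay far below the other MANIO libraries. Without that library SLC6A8 was called higher (0.19, edgeR adjusted p = 0.00815).

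The glycine transporter SLC6A9 (GlyT1) was called lower, with 7.57, 6.59, 7.82 and 5.96 CPM in MANIO, against 7.11, 11.0, 9.42 and 8.21 CPM in DMSO. DMSO replicate 1 lay within the MANIO range (-0.36, SE 0.127, edgeR adjusted p = 0.0268). The call for SLC6A9 was lost without MANIO replicate 2, MANIO replicate 4, DMSO replicate 2 or DMSO replicate 3 (edgeR adjusted p = 0.0716, 0.0699, 0.102 and 0.0713). SLC6A20, a carrier of proline and related imino acids, had 4.53, 3.96, 4.21 and 4.88 CPM in MANIO, against 3.65, 3.60, 3.47 and 3.66 CPM in DMSO (0.29, SE 0.103, edgeR adjusted p = 0.0268). Its groups did not overlap, yet its call was lost without MANIO replicate 1, MANIO replicate 4, DMSO replicate 2 or DMSO replicate 3 (edgeR adjusted p = 0.0618, 0.0833, 0.0506 and 0.0669), with DESeq2 (adjusted p = 0.0679) and with no filter (edgeR adjusted p = 0.0883).

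The serotonin transporter SLC6A4 was under 1 CPM in every library, with 0.412, 0.518, 0.791 and 0.505 CPM in MANIO, against 0.298, 0.314, 0.191 and 0.462 CPM in DMSO. Its groups overlapped, and its call (0.82, SE 0.310, edgeR adjusted p = 0.0353) was lost in 7 of 12 alternatives. Among these were the fits without MANIO replicate 2 or 3 (edgeR adjusted p = 0.0516 and 0.133) or without DMSO replicate 1, 2 or 3 (edgeR adjusted p = 0.0604, 0.0598 and 0.116) and the DESeq2 fit (adjusted p = 0.088). SLC6A16 and SLC6A17 were not called (0.23 and 0.14, edgeR adjusted p = 0.0815 and 0.0969).

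The lactate and pyruvate carriers split. SLC16A1 (MCT1) rose, and had 183.6, 198.5, 184.2 and 203.3 CPM in MANIO, against 154.1, 153.0, 154.3 and 147.2 CPM in DMSO. The groups were separate, with all DMSO libraries within a few CPM of each other (0.34, SE 0.0516, edgeR adjusted p = 5.8e-05). SLC16A3 (MCT4), the carrier known for lactate release from glycolytic cells, was not called and its groups overlapped, with 314.5, 317.1, 335.2 and 273.0 CPM in MANIO, against 269.7, 339.6, 353.8 and 336.7 CPM in DMSO (-0.07, SE 0.0824, edgeR adjusted p = 0.508).

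SLC16A7 (MCT2), which has a high affinity for its substrates, was called lower. It had 13.2, 17.2, 15.7 and 17.8 CPM in MANIO, against 19.5, 16.4, 21.0 and 22.0 CPM in DMSO (-0.30, SE 0.103, edgeR adjusted p = 0.0219). DMSO replicate 2 lay among the MANIO libraries, and the call was lost without MANIO replicate 1, DMSO replicate 3 or DMSO replicate 4 (edgeR adjusted p = 0.0696, 0.066 and 0.0747). Per length SLC16A3 stood at 1.01, 0.944, 1.08 and 0.793 times SLC16A1 in MANIO, against 1.03, 1.31, 1.35 and 1.35 times in DMSO. DMSO replicate 1 fell within the MANIO range of this ratio and the other 3 DMSO libraries lay above it.

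The other SLC16 genes moved in both directions. SLC16A5 had 52.0, 46.9, 50.6 and 45.6 CPM in MANIO, against 37.0, 38.8, 37.5 and 38.8 CPM in DMSO, without overlap (0.36, SE 0.0589, edgeR adjusted p = 1.1e-04). SLC16A10 (TAT1), a carrier of aromatic amino acids, had 13.0, 13.2, 11.4 and 13.0 CPM in MANIO, against 11.3, 9.71, 9.83 and 11.1 CPM in DMSO, separated only narrowly (0.27, SE 0.0807, edgeR adjusted p = 0.0094). SLC16A13 had 4.12, 4.60, 3.92 and 4.27 CPM in MANIO, against 5.95, 6.88, 6.11 and 7.28 CPM in DMSO, also without overlap (-0.63, SE 0.09995, edgeR adjusted p = 8.1e-05). SLC16A14 was lower as well, by a small amount (-0.21, edgeR adjusted p = 0.0158), and lost its call without MANIO replicate 3 (edgeR adjusted p = 0.054). SLC16A6 and SLC16A9 were not called (0.22 and 0.13, edgeR adjusted p = 0.09 and 0.108), and SLC16A6 was called higher without MANIO replicate 1 (0.29, edgeR adjusted p = 0.0388).

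Of the 33 genes not tested, 10 had no count in any library, and none of the others had more than 14 counts in a library. SLC16A12, a creatine carrier, had 4, 6, 8 and 8 counts in the MANIO libraries and 0 in each DMSO library, a total of 26 against 0. With 3 counts over the DMSO group as the limit that a count of 0 allows, the 26 MANIO counts stand 7.94-fold higher. This value leaves out the error of the MANIO counts, so it is not a strict lower limit. SLC7A10 (Asc-1), a light chain for small neutral amino acids, had 16 counts in MANIO and 2 in DMSO, a ratio of 7.33 (95% counting interval 1.72 to 65.7). With no filter on low counts both were called higher, SLC16A12 with edgeR adjusted p = 1.7e-06 and SLC7A10 with edgeR adjusted p = 0.0137. No other untested gene was called in that fit. SLC7A9 had 6, 3, 8 and 5 counts in MANIO, against 7, 10, 8 and 8 in DMSO. Its CPM was lower in MANIO without overlap, and it was not called (edgeR adjusted p = 0.225). The interval for SLC7A10 covers counting error only, and the value for SLC16A12 only that of the DMSO counts.

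Promoter sequences were searched because all 4 tested SLC1 genes moved together and because several of these genes are known targets of the amino acid response factor ATF4 or of NRF2, which acts through the antioxidant response element. RefSeq windows on GRCh38.p14, 250 bases before to 50 after an annotated start, matched 53 of the 73 genes and 31 of the 40 tested, which had 56 windows, since a gene can have several starts. The ATF4 element core, TGATGCAA on either strand, was in 3 of these 56 windows (5.36%) and in 0.866% of all 35116 windows. The 3 windows belong to SLC1A3, SLC1A4 and SLC1A5, all lower in MANIO. The search followed the fall of these genes, and a gene can have several windows, so these shares are a description and were not tested. SLC1A1, the other tested SLC1 gene and also lower, had a window in the table but no ATF4 core. SLC1A3 and SLC1A5 had 3 windows each and SLC1A4 had 2, with the core in 1 window of each gene. Distances below are from the annotated start of that window. The SLC1A3 window lies before the gene's first base in GENCODE 29, and those of SLC1A4 and SLC1A5 lie inside the gene spans. The 3 sites, picked for printing after this was seen, are shown with 16 bases on each side, 5′ to 3′ on the strand that carries the core, with the core in capitals.
SLC1A3, chr5:36596352-36596391, plus strand, core 220 bases before the start: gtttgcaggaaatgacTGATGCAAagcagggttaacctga
SLC1A4, chr2:64989376-64989415, minus strand, core 7 bases before the start: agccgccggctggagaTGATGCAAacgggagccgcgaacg
SLC1A5, chr19:46784888-46784927, minus strand, core 97 bases before the start: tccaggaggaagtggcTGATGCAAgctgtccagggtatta

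The antioxidant response element, TGACNNNGC on either strand, was in 7 of the 56 windows (12.5%), near its share of all windows (13.3%). The genes were SLC7A6, higher in MANIO, SLC1A3, SLC1A5 and SLC7A1, lower, and SLC3A2, SLC7A5 and SLC16A9, not called. SLC7A11 had no window in the table. The window of SLC7A6, the gene with the smallest p of the 40, holds 2 matches, starting 197 and 29 bases before the start and shown in capitals.
SLC7A6, chr16:68264276-68264575, plus strand: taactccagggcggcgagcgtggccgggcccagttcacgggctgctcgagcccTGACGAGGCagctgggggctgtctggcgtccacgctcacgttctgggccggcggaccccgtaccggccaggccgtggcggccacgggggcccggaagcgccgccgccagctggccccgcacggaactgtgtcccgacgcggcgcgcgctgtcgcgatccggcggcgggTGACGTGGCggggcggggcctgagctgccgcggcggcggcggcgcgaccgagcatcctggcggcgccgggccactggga

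The p53 decamer, the repeat unit of the p53 response element, was in 5 of the 56 windows (8.93%), against 6.63% of all windows, and the E-box CACGTG in 9 (16.1%), against 7.26%. Both motifs read the same on the 2 strands and were counted once per place. The genes with an E-box were SLC36A1, SLC38A5 and SLC38A7, higher in MANIO, SLC1A5, lower, and SLC7A5, SLC7A8, SLC16A9, SLC43A1 and SLC6A16, not called. The genes with a p53 decamer were SLC1A3, SLC16A7 and SLC38A1, lower in MANIO, SLC38A5, higher, and SLC7A8, not called. SLC38A1 is shown as the most abundant of these genes, with the decamer in capitals. It has 2 windows, and the decamer lies 11 bases before the annotated start of the window shown.
SLC38A1, chr12:46267938-46268237, minus strand: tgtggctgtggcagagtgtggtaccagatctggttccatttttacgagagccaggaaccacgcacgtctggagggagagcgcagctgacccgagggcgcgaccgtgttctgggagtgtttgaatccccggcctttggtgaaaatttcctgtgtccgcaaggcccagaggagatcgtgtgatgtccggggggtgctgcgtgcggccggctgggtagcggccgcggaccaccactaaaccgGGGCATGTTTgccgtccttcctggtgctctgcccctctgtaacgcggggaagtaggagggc
A match of letters in these windows is a description of the sequence; binding was not measured.

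Genes that work with the transporters were read from the same fit. Of 8 tested partner and regulator genes, 1 was higher and 4 were lower, a called share of 62.5% against 54.6% of all tested genes. NEDD4, a ubiquitin ligase that marks membrane transporters for removal, averaged 21.1 ± 0.979 CPM in MANIO and 33.7 ± 0.961 CPM in DMSO (-0.68, edgeR adjusted p = 2.2e-07), and NEDD4L was lower by less (-0.16, edgeR adjusted p = 0.0153). The MCT chaperones NPTN and EMB went different ways, with log2 fold changes of -0.52 for NPTN (edgeR adjusted p = 1.2e-05) and 0.35 for EMB (edgeR adjusted p = 0.00506). BSG, the chaperone of MCT1 and MCT4, was added here after its value was seen and was not called (-0.04, edgeR adjusted p = 0.602).

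The enzymes that make and use lactate and pyruvate were mostly lower: of 18 tested, 14 were lower and 1 was higher, with a median log2 fold change of -0.29. In shares, 77.8% of them were called lower and 5.56% higher, against 26.8% and 27.8% of all tested genes. LDHA, which interconverts pyruvate and lactate, averaged 704 ± 33.1 CPM in MANIO and 1075 ± 65.2 CPM in DMSO (-0.61, edgeR adjusted p = 6.1e-07). PKM, the last enzyme of glycolysis, averaged 1768 ± 84.9 CPM in MANIO and 2284 ± 79.2 CPM in DMSO (-0.37, edgeR adjusted p = 6.4e-05). Pyruvate carboxylase, PC, was lower at -0.80 (edgeR adjusted p = 1.3e-06) and the pyruvate dehydrogenase subunit PDHB at -0.29 (edgeR adjusted p = 4.0e-04). The enzyme that was higher was ME2, mitochondrial malic enzyme (0.26, edgeR adjusted p = 5.4e-04). The lactate carrier SLC16A1 was higher in the same libraries in which LDHA was lower.

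Of 18 tested genes of glutamine, glutamate, aspartate and proline metabolism, 4 were higher and 6 lower. Their called share of 55.6% was near the 54.6% of all tested genes. GLUL, which makes glutamine, was higher at 0.22 (edgeR adjusted p = 0.00105). The proline enzyme PYCR1 was lower at -0.65 (edgeR adjusted p = 2.2e-06), although 29.7% of its exonic bases are shared with other genes, and the asparaginase ASRGL1 was lower at -0.41 (edgeR adjusted p = 1.9e-04).

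Of 13 tested genes of cysteine and glutathione metabolism, 5 were higher and 5 lower, 76.9% called against 54.6% of all tested genes. GCLC, the catalytic subunit of the first enzyme of glutathione synthesis, was lower like the cystine carrier SLC7A11, with 81.0 ± 7.29 CPM in MANIO and 104.5 ± 3.64 CPM in DMSO (-0.37, edgeR adjusted p = 1.7e-04), and so was the dipeptidase CNDP2 (-0.35, edgeR adjusted p = 6.1e-05). The glutamyl transferases, which break down glutathione outside the cell, were higher. GGT1 averaged 9.85 ± 0.253 CPM in MANIO and 5.16 ± 0.620 CPM in DMSO (0.93, edgeR adjusted p = 9.2e-07), and GGT6 averaged 1.61 ± 0.242 CPM in MANIO and 0.148 ± 0.0334 CPM in DMSO (3.41, edgeR adjusted p = 4.1e-08).

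Of 36 tested genes of amino acid sensing by mTORC1, 6 were higher and 10 lower. This is a called share of 44.4%, under the 54.6% of all tested genes. The sestrins SESN1 and SESN2, stress proteins that restrain mTORC1 and are known p53 targets, were higher at 1.53 (edgeR adjusted p = 5.7e-11) and 1.10 (edgeR adjusted p = 2.1e-08). FNIP2 was lower at -0.73 (edgeR adjusted p = 1.8e-06).

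Of 21 tested genes of the GCN2 and ATF4 amino acid response, 10 were higher and 5 lower. As shares these are 47.6% higher and 23.8% lower, against 27.8% and 26.8% of all tested genes. SESN2 is on this list too. NUPR1, a gene of low level, averaged 1.50 ± 0.288 CPM in MANIO and 0.278 ± 0.0447 CPM in DMSO (2.42, edgeR adjusted p = 6.3e-07). The serine synthesis enzyme PHGDH averaged 101 ± 10.9 CPM in MANIO and 158 ± 11.3 CPM in DMSO (-0.64, edgeR adjusted p = 4.1e-06), and the ATF4 target TRIB3 averaged 45.9 ± 4.95 CPM in MANIO and 70.6 ± 7.83 CPM in DMSO (-0.62, edgeR adjusted p = 3.2e-05). ATF4 itself, named here after its value was seen, was lower at -0.15 (edgeR adjusted p = 0.0222).

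Of 12 tested genes of branched-chain amino acid breakdown, 2 were higher and 5 lower. With 58.3% called, this list was near the 54.6% of all tested genes. HIBADH and AUH, mitochondrial enzymes of valine and leucine breakdown, were lower at -0.47 (edgeR adjusted p = 1.0e-05) and -0.52 (edgeR adjusted p = 2.7e-05), and so was BCKDHB, a subunit of the branched-chain ketoacid dehydrogenase (-0.44, edgeR adjusted p = 4.1e-04). IVD, which acts on the leucine product, was higher at 0.38 (edgeR adjusted p = 4.7e-05).

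Transporters of amino acids or pyruvate from other families numbered 16 tested, with 7 higher and 2 lower. Together 56.2% of them were called, near the 54.6% of all tested genes. The mitochondrial carrier of basic amino acids SLC25A29 averaged 51.5 ± 5.41 CPM in MANIO and 29.4 ± 1.40 CPM in DMSO (0.81, edgeR adjusted p = 3.8e-07). SLC25A44, the mitochondrial branched-chain amino acid carrier, was higher at 0.24 (edgeR adjusted p = 0.00744), and the vesicular glutamate transporter SLC17A7 at 0.67 (edgeR adjusted p = 0.0015). MPC2, a subunit of the mitochondrial pyruvate carrier, was lower at -0.27 (edgeR adjusted p = 8.5e-04), with 22.5% of its exonic bases shared with other genes.

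**Figure D5:**
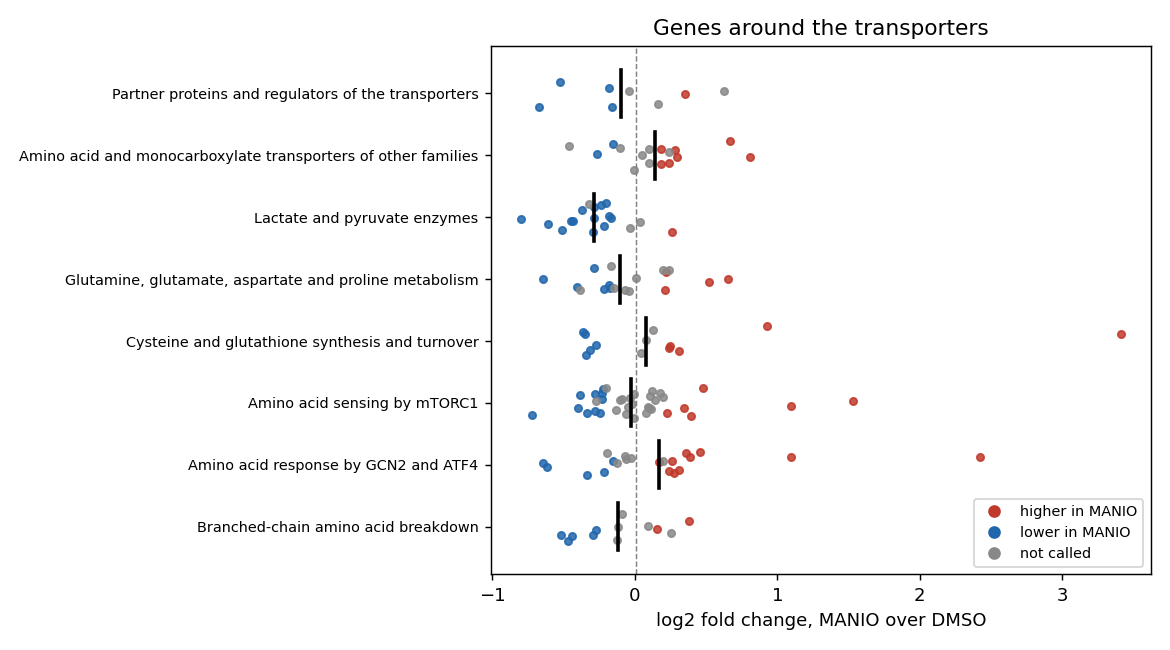
Log2 fold change, MANIO over DMSO, of each tested gene on 8 lists of genes around the transporters. Points are spread vertically only for legibility, colours mark the calls as in the legend, black bars are list medians and the dashed line is the median of all tested genes. The lactate and pyruvate enzymes lie mostly left of the dashed line, with a median of -0.29, and the genes farthest right are GGT6 at 3.41 and NUPR1 at 2.42.

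By genomic span, from first to last annotated base, the 14 transporters called lower had a median of 75.9 kb and the 13 called higher a median of 41.1 kb. Among all tested genes the medians were 41.1 kb for the 4208 called lower and 23.9 kb for the 4366 called higher. The ranges of the transporters overlapped widely, with 4.05 to 194 kb among those lower and 11.7 to 144 kb among those higher. The part of gene span in the calls was not tested.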

How the data were processed

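Libraries of total RNA came from the TruSeq RNA v2 kit, which does not mark the strand, per the labels' protocols. The authors deposited 1 table of raw counts per Ensembl gene. Tools named in the submitters' processing notes are FastQC 1.3, STAR 2.5.3a, HTSeq and DESeq2, with the build GRCh38 and no roles. How HTSeq was set for strand, for reads with several matches and for overlapping genes is not stated, so counts from shared exons are uncertain.

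Of 58302 genes, filterByExpr kept 15712. After TMM scaling they were tested in edgeR 4.0.16 (R 4.3.3) by its quasi-likelihood F test, with group as the only term, robust dispersions and Benjamini-Hochberg adjustment over all of them. Standard errors come from the F statistic. The script was tested on simulated data. Exon lengths, positions and overlaps came from GENCODE 29, where 58039 identifiers were found, and promoters from RefSeq on GRCh38.p14. Alternatives were DESeq2 1.42.0, upper-quartile scaling, no filter, the replicate number as a block, a 1.2-fold limit and leaving out each library.

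Named transporters are a fixed list of 21 plus the 10 largest rises and 10 largest falls among called genes whose groups do not overlap and whose mean log2 CPM is 0 or more. From each other list the 4 genes with the smallest p are named, except that some are not reported here. The members and lists were chosen with earlier results of these data known. Libraries of a group differed by more than sampling noise (for pairs of libraries, chi-square over its degrees of freedom was 3.57 to 23.8).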

Additional observations from a re-analysis of the deposited data

Results flagged for a closer look

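In 2 of 80 groups of 4 libraries (40 transporters in each treatment) 1 library lay far from the other 3, a share of 2.5%, when chance gives about 1 in 20. SLC16A10 had 11.39 CPM in MANIO replicate 3 and 12.99 to 13.23 CPM in the other MANIO libraries. SLC6A8 had 89.69 CPM in MANIO replicate 4 and 103.4 to 105.3 CPM in the other MANIO libraries. MANIO replicate 4 was the lowest library of its group for 18 of the 40 transporters, more often than any other MANIO library (5 to 9).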

How the results depend on the processing

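Of the 27 called transporters, 17 kept their call in all 12 alternatives that gave each a value. With a 1.2-fold limit, 2 transporters were higher, 6 were lower and 4132 of all genes were called, against 13, 14 and 8574 without a limit. DESeq2 gave 11 higher and 14 lower, upper-quartile scaling 13 and 14, and no filter 14 and 16. Leaving out 1 library gave 9 to 14 higher, 11 to 15 lower and 7755 to 8550 genes called; the lowest counts of each were without DMSO replicate 3. No setting moved the median log2 fold change of all genes by over 0.1. Of 320 single-gene values with 1 library left out, 282 kept direction and call, 27 lost a call, 9 gained one and 2 reversed, neither called: SLC36A4, whose values ran between -0.0370 and 0.101, and SLC43A1, between -0.0389 and 0.0626. Of 160 values under other settings, 152 kept both. The cause of these changes was not tested.

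The labels give replicates 1 to 4 in both groups but do not say that a number marks a shared culture. Same-numbered libraries correlated weakly (r = 0.0385 to 0.163), and libraries with different numbers had r between -0.314 and 0.290. Only 2 of 8 libraries correlated best with their own number, so same-numbered libraries were not treated as pairs. These values do not settle whether a number marks a shared culture. With the replicate block, 12 transporters were higher, 16 lower and 8845 of all genes were called; SLC7A5 and SLC3A2 were then called lower (adjusted p = 0.0182 and 0.0131) and SLC6A4 was not called (adjusted p = 0.0509). The 33 genes not tested had at most 14 counts in a library.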
